A study of Mus musculus with 7 samples.

Results

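The 35 genes described here code for the actin filament system that lets a cell hold and generate tension, together with the transcription factor gene Srf that drives many of them. They were given by name, and every name matched a gene in the deposited count table of 54532 features. Of the 35, 34 passed the filter on low counts and entered a test of 15441 genes, and Myocd did not. The OB group had 4 libraries of C3H10T1/2 cells under osteoblast induction for 3 days. The induction medium held dexamethasone (a glucocorticoid drug), L-ascorbic acid at 50 µM, penicillin-streptomycin and β-glycerophosphate at 10 mM. The control group had 3 libraries of the same cells left untreated. C3H10T1/2 is a single established mouse line of mesenchymal cells grown in plastic culture in serum-containing medium, so both groups share its genetic background.

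Actin filaments slide against myosin II, a motor built from heavy chains, an essential light chain and a regulatory light chain that myosin light chain kinase switches on. Tropomyosins, calponins and caldesmon lie along the filament and tune that contact, while alpha-actinins and filamin tie filaments into bundles and nets. Serum response factor (SRF) binds a DNA element called the CArG box, with myocardin or its relatives MRTF-A and MRTF-B as partners. MRTF proteins bind actin monomers, so the state of actin polymerisation sets how much of them reaches the nucleus. In mesenchymal cells this system is known for its link to spreading, tension and the choice between bone and fat fates.

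The libraries held 21213328 to 43403730 counts on genes in the OB group and 25689889 to 46530017 in the control group. Levels are given as CPM, counts scaled to the TMM-adjusted library total, and 3 counts equal 0.0639 to 0.139 CPM in a single library. The submitters' descriptions fall into 3 label sets, C1 (OB 1 and control 1), C2 (OB 2 and control 2) and those with no C number (OB 3, OB 4 and control 3). What a label set stands for is not given. Control 3 was the highest or lowest of the 7 libraries for 52.9% of the 34 tested members and for 59.4% of all genes tested. Among 10 proliferation genes all were lower in OB by the test used below, with summed levels of 374 to 544 CPM in OB, against 806, 2100 and 2400 CPM in control 1, 2 and 3. Their part in the results below was not tested. Of 10 mesenchymal stromal markers all were tested and 1 was under 1 CPM in every library, with summed levels of 21200 to 31100 CPM in OB and 27700 to 37400 CPM in control. Of these Pdgfra was higher, at 639 to 821 CPM in OB and 140 to 314 CPM in control (log2 fold change 1.54 ± 0.27, edgeR adjusted p = 0.0182), and the other 9 did not pass. Of 20 skeletal muscle markers 16 were under 1 CPM in every library and Myod1, Myf6, Myh1, Myh2, Myh4 and Actn2 were at 0. Their summed level was 31.5 to 44.2 CPM in OB and 10.3 to 30.0 CPM in control. Most of this sum came from Actn3 (11.4 to 23.6 CPM in OB, 5.99 to 16.7 CPM in control) and Tnni1 (7.37 to 30.0 and 1.11 to 14.5 CPM). None of the 6 skeletal muscle markers tested passed. Of 9 cardiac markers 7 were under 1 CPM throughout, with sums of 3.82 to 6.42 CPM in OB and 4.17 to 9.01 CPM in control. Sums of 7 pericyte markers were 863 to 980 CPM in OB and 725 to 1030 CPM in control, with Kcnj8 at 0. Most of these sums came from Pdgfrb, which is also among the stromal markers above, and from Cspg4 and Notch3. Of the 7 pericyte markers Rgs5 was lower (log2 fold change -2.18 ± 0.53, edgeR adjusted p = 0.0455). It stood at 0.203 to 0.331 CPM in OB and 0.617 to 2.46 CPM in control, on only 32 and 121 counts. The other 4 tested did not pass, with log2 fold changes of -1.35 (Mcam), -0.55 (Cspg4), 0.10 (Pdgfrb) and 0.55 (Notch3).

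CArG boxes were looked for in RefSeq promoter windows of build GRCm38.p6, each from 250 bases before to 50 bases after an annotated start. The CArG box is a run of A or T bases between CC and GG, is its own reverse complement in pattern, and was searched once for both strands. Windows were found for 30 of the 35 members, and not for Actb, Actg2, Tagln, Myh11 and Myocd. Of these 30 genes 8 had a CArG box, namely Acta1, Actg1, Cnn2, Myl9, Myl6, Fhl1, Fhl2 and Srf. By windows, 24.3% of the 37 member windows held one, and 1.63% of all 32851 windows. The members were listed for their link to SRF, so this contrast is a description of the list. The following stretches are printed to show the element in Srf itself, in a cytoplasmic actin gene, in a calponin gene and in the regulatory light chain gene, with each CArG box in capitals.
Srf: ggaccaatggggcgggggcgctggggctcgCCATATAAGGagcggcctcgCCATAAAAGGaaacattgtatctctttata
Actg1: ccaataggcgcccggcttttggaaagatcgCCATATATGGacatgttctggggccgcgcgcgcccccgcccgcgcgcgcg
Cnn2: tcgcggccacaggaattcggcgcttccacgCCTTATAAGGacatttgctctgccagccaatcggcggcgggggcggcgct
Myl9: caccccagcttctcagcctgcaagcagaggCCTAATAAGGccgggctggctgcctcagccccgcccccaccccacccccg
The Srf stretch lies at chr17:46556195-46556274 on the minus strand, with boxes starting 82 and 62 bases before the gene's start. The Actg1 stretch (chr11:120348536-120348615, minus strand) has its box 90 bases before the start. The Cnn2 stretch (chr10:79988514-79988593, plus strand) has it at 56 bases and the Myl9 stretch (chr2:156775273-156775352, plus strand) at 161 bases. The Acta2 window had no exact CArG box, and the next stretch (chr19:34255393-34255472, minus strand) shows in capitals 2 sites, 84 and 34 bases before the start, that depart from the pattern at 1 base each.
Acta2: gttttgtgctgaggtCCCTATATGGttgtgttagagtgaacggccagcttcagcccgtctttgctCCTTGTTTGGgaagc

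Most of the filament system did not change past the test in OB, and the members that did went in both directions. Cnn3, Lmod1 and Csrp1 rose, Actn4 and Tagln2 fell, 29 members did not pass, and 1 was not tested. Calls used the quasi-likelihood test of edgeR at a threshold of 0.05, with p-values adjusted by the Benjamini-Hochberg method across the 15441 genes. By it 8.04% of all genes were called (4.32% higher and 3.72% lower), and 5 of the 34 tested members (3 higher and 2 lower). At an unadjusted p under 0.05 there were 13 of 34 members, and 25.2% of all genes. The median log2 fold change of the members was -0.20 and that of all genes tested was 0. Tested members ranged from -1.32 (Des) to 1.99 (Lmod1), and 13 of 34 were above 0, as were 49.6% of all genes. A log2 fold change of at least 1 in either direction was found for 3 of 34 members, and for 10.8% of all genes. The OB and control libraries did not overlap for 11 of 34 members, and for 25.5% of all genes. All members together held 1.77%, 1.56%, 1.82% and 1.53% of the scaled counts in OB 1 to 4, against 1.88%, 1.72% and 1.87% in control 1 to 3. In whole-culture RNA, fewer cells that express a gene and less of its RNA per cell cannot be told apart.

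**Figure D1:**
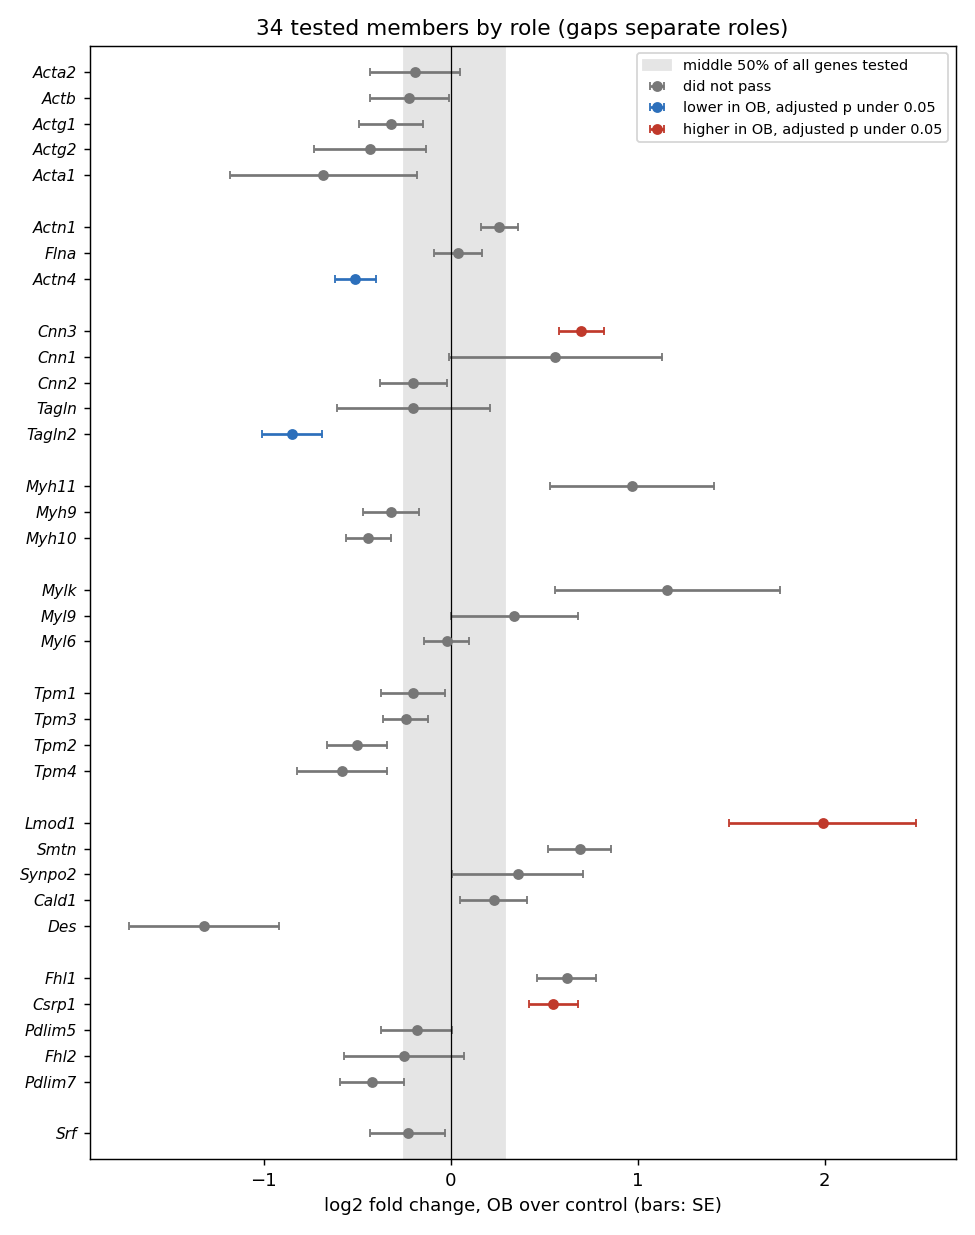
Log2 fold change of OB over control (horizontal axis, points) with its SE (bars) for the 34 tested members, grouped by role with gaps between roles; the grey band is the middle 50% of all genes tested. Lmod1 has the largest value at 1.99, and the 5 actin genes all lie below 0 without passing.

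Of the 5 actin genes, which code for the filament's own subunit, none passed. Per kilobase of exon, the cytoplasmic actin genes Actb and Actg1 stood highest, at 828 ± 227 and 581 ± 82.8 CPM per kilobase in OB (SD, n = 4) and at 962 ± 33.2 and 728 ± 128 CPM per kilobase in control (SD, n = 3). Acta2, the smooth muscle alpha-actin gene, followed at 473 ± 152 CPM per kilobase in OB and 539 ± 55.8 CPM per kilobase in control. Within OB, the mean ± SD ranges of Actb and Actg1 overlapped, as did those of Actg1 and Acta2. Actb held a larger share than Actg1 in each OB library, from 51.5% and 29.3% in OB 1 to 34.4% and 32.9% in OB 4. The enteric smooth muscle gene Actg2 and the skeletal gene Acta1 were far lower, at 7.51 ± 2.82 and 0.278 ± 0.136 CPM per kilobase in OB and at 10.1 ± 1.95 and 0.444 ± 0.177 CPM per kilobase in control.

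Actg1 stood at 1660, 1300, 1790 and 1430 CPM in OB 1 to 4, against 1950, 1580 and 2260 CPM in control 1 to 3. Control 1 and control 3 were above every OB library, while control 2 lay within the OB range. Actg2 stood at 7.77, 8.04, 15.7 and 15.3 CPM in OB 1 to 4, against 14.3, 13.6 and 19.2 CPM in control. OB 1 and OB 2 were below all controls and OB 3 and OB 4 lay among them. The log2 fold changes were -0.32 ± 0.17 (SE) for Actg1 and -0.43 ± 0.30 for Actg2, with edgeR adjusted p = 0.264 and 0.418. Of the Actg1 50-base transcript words 37.4% recur in other genes, Gm12715 the closest, and multi-mapping fragments carried no count. For Actb and Acta2 that share was 9.1% and 0.3%. Actg1 is thus more open to undercounting than Actb, and the order of these genes given above is uncertain.

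Acta2, picked out after its values were seen, split the OB group by label set. It stood at 720 and 545 CPM in OB 1 and 2 and at 1170 and 936 CPM in OB 3 and 4, against 973, 855 and 1050 CPM in control 1 to 3. OB 1 and OB 2 were below every control, OB 3 was above every control, and OB 4 lay among them. The fitted difference for Acta2 was -0.19 ± 0.24 on the log2 scale (edgeR adjusted p = 0.678). Actb went the other way within OB, at 2940 and 2430 CPM in OB 1 and 2 and at 1990 and 1510 CPM in OB 3 and 4, against 2500 to 2670 CPM in control. The share of the 5 actin genes' length-adjusted level held by Acta2 was 19.0% and 17.9% in OB 1 and 2 and 31.5% and 32.0% in OB 3 and 4, against 23.5% to 24.7% in control. The mean difference of OB minus control was 1.07 percentage points with all libraries, and -5.25 points among the C1 and C2 libraries.

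The same division of the OB libraries was common. OB 3 and OB 4 were both above OB 1 and OB 2 for 12 of 34 members and for 29.9% of all genes, and both below for 5 of 34 members and for 31.8% of all genes. Whether it comes from the label sets or from separate cultures was not tested.

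Among the crosslinkers 1 of 3 passed, and the balance of the alpha-actinin pair differed between the groups. Actn4, whose product bundles actin filaments in nonmuscle cells, fell to 414, 422, 461 and 410 CPM in OB 1 to 4, against 558, 591 and 673 CPM in control 1 to 3. All OB libraries were below all controls. This is a fold of 0.703, or -0.51 ± 0.11 on the log2 scale (edgeR adjusted p = 0.0310). Actn1, the other nonmuscle alpha-actinin gene, stood at 465, 448, 451 and 436 CPM in OB, against 358, 358 and 415 CPM in control. It lay above all controls in every OB library, but did not pass (log2 fold change 0.26 ± 0.10, edgeR adjusted p = 0.163). Actn1 was called higher by limma-voom (adjusted p = 0.0282) and not by DESeq2 (adjusted p = 0.153).

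Per length, Actn1 held 55.4%, 54.0%, 52.0% and 54.1% of the pair's level in OB 1 to 4, against 41.5%, 40.2% and 40.6% in control 1 to 3. The groups did not overlap in this share, and the mean was 53.9% ± 1.43 in OB (SD, n = 4) and 40.8% ± 0.679 in control (SD, n = 3). This share carries no test. Its lack of overlap was fixed in advance, because every OB library lay above all controls for Actn1 and below them for Actn4. Flna, which codes for the actin crosslinker filamin A, stood at 2290 to 2930 CPM in OB and 2270 to 2670 CPM in control (0.04 ± 0.13 on the log2 scale, edgeR adjusted p = 0.893). Actn4 (ENSMUSG00000054808) lies at chr7:28893248-28962340 on the minus strand of mm10, with 5.2% of its exon bases inside other genes, of which Capn12 had the largest overlap and had 4 to 9 counts a library. The call of Actn4 ended without any OB library or without control 2 (edgeR adjusted p up to 0.0968).

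**Figure D2:**
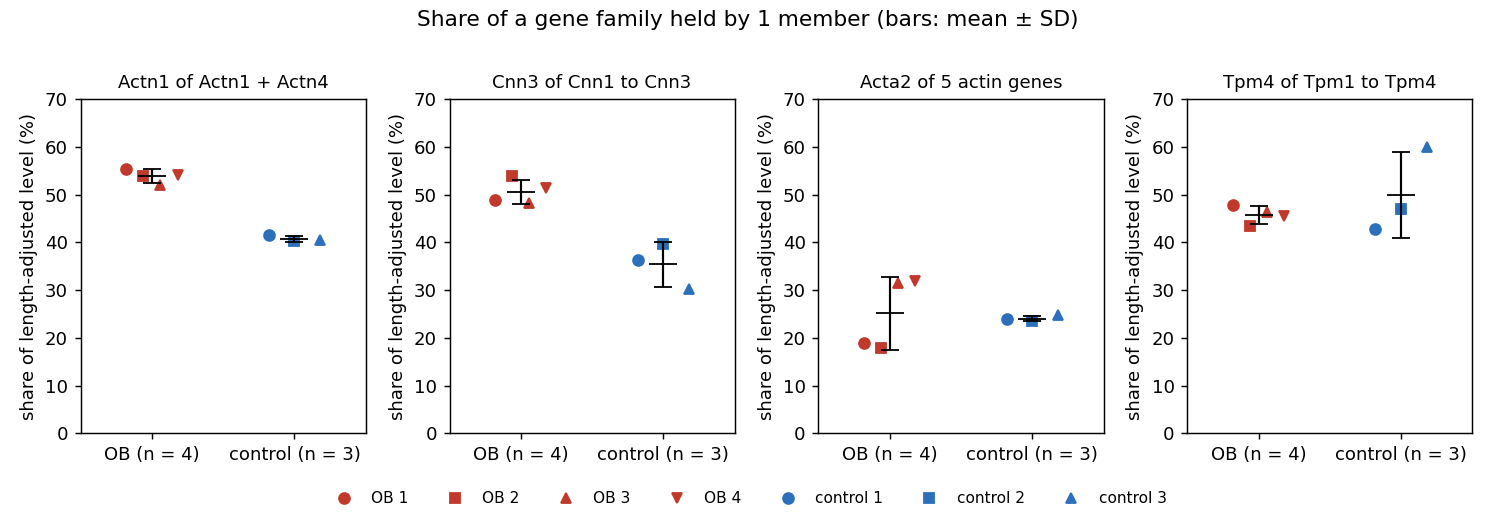
Share (%) of a gene family's length-adjusted level held by 1 member in each library, with group means and SD as bars; OB libraries are left (n = 4) and control libraries right (n = 3). Actn1 and Cnn3 shares do not overlap between groups, Acta2 shares divide OB 1 and 2 from OB 3 and 4, and the Tpm4 share is 60.0% in control 3 alone. For Actn1 the lack of overlap follows from the levels of Actn1 and Actn4.

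In the calponin and transgelin family, related actin-binding proteins that damp myosin activity or stabilise filaments, 1 member rose, 1 fell and 3 did not pass. Cnn3, acidic calponin, the form found widely outside muscle, rose to 744, 604, 715 and 643 CPM in OB 1 to 4, against 455, 420 and 378 CPM in control 1 to 3. Every OB library was above every control. The log2 fold change of Cnn3 was 0.70 ± 0.12 (edgeR adjusted p = 0.0181), a fold of 1.62. Cnn2, the other calponin gene at high level, stood at 542 ± 103 CPM in OB and 624 ± 97.1 CPM in control with overlapping groups (log2 fold change -0.20 ± 0.18, edgeR adjusted p = 0.521). Per length, Cnn3 held 50.5% ± 2.61 of the calponin level in OB (SD, n = 4) and 35.4% ± 4.78 in control (SD, n = 3), and the groups did not overlap.

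Cnn1, basic calponin, a late marker of smooth muscle, was near the floor with 6, 25, 11 and 10 counts in OB 1 to 4, against 12, 19 and 2 counts in control 1 to 3. No exon base of Cnn1 overlaps another gene. Its level per kilobase was 0.160 ± 0.0541 CPM in OB and 0.107 ± 0.0852 CPM in control, against 473 and 539 for Acta2. Cnn3 (ENSMUSG00000053931) lies at chr3:121426497-121458207 on the plus strand of mm10, with 17.7% of its exon bases inside other genes, of which Gm42928 on the opposite strand had the largest overlap. Gm42928 itself stood at 1.27 to 2.97 CPM over the 7 libraries. The call of Cnn3 ended without OB 1 or control 2 (edgeR adjusted p = 0.0586 and 0.0742).

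Tagln2, transgelin 2, the form of nonmuscle cells, fell to 181, 188, 208 and 198 CPM in OB 1 to 4, against 263, 356 and 429 CPM in control 1 to 3. The OB libraries were close to each other and all below the lowest control. The fold was 0.555, or -0.85 ± 0.16 on the log2 scale (edgeR adjusted p = 0.0229). Tagln2 (ENSMUSG00000026547) lies at chr1:172500047-172507380 on the plus strand of mm10. Its call ended without any OB library or without control 2 (edgeR adjusted p up to 0.0799).

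Tagln, the SM22 alpha gene and a standard marker of smooth muscle, had 10, 18, 22 and 22 counts in OB 1 to 4, against 31, 25 and 25 counts in control 1 to 3. These low counts cannot be read as a low level of Tagln. Other genes cover 67.9% of its exon bases, Gm48529 on the opposite strand with the largest overlap, and a fragment that touches both genes was given to neither. Gm48529 itself had 9 to 27 counts a library. The log2 fold change of Tagln was -0.20 ± 0.41 (edgeR adjusted p = 0.799) and rests on the uncovered remainder.

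Of the 3 myosin heavy chain genes none passed. Per length, the nonmuscle gene Myh9 held 77.6% ± 3.00 of their level in OB and 76.5% ± 1.29 in control, Myh10 held 22.3% ± 2.98 and 23.5% ± 1.28, and the smooth muscle gene Myh11 held 0.0927% ± 0.0269 and 0.0339% ± 0.0176 (SD, n = 4 and 3). Myh10, the second nonmuscle gene, stood at 427, 417, 429 and 439 CPM in OB 1 to 4, against 647, 602 and 498 CPM in control 1 to 3. All OB libraries were below all controls and lay within a narrow range. The log2 fold change of Myh10 was -0.44 ± 0.12 and missed the threshold (edgeR adjusted p = 0.0540), while DESeq2 and limma-voom called it lower (adjusted p = 0.00727 and 0.00742). That of Myh9 was -0.32 ± 0.15 (edgeR adjusted p = 0.218). Myh9 was called lower by limma-voom (adjusted p = 0.0463) and not by DESeq2 (adjusted p = 0.22).

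Myh11 had 34, 38, 29 and 36 counts in OB 1 to 4, against 44, 25 and 6 counts in control 1 to 3. In CPM these are 0.893 to 1.49 in OB and 0.238 to 0.937 in control, and control 3 was the lowest. The fitted Myh11 value was 0.97 ± 0.44 on the log2 scale (edgeR adjusted p = 0.213).

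Mylk, the gene of myosin light chain kinase, was uneven among the controls. It stood at 90.3, 83.8, 67.0 and 54.9 CPM in OB 1 to 4, against 52.1, 41.4 and 5.83 CPM in control 1 to 3. All OB libraries were above all controls, and control 3 was far below the other two. The log2 fold change of Mylk was 1.16 ± 0.60 (edgeR adjusted p = 0.270), with log2 ratios of 0.79 in C1, 1.02 in C2 and 3.36 in the set with no C number. It passed among the C1 and C2 libraries alone (log2 fold change 0.90, edgeR adjusted p = 0.0214), and it did not pass without control 3 (0.66, edgeR adjusted p = 0.111). Other genes cover 6.9% of the Mylk exon bases.

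Myl9, the regulatory light chain gene, had overlapping groups and a different sign between label sets. It stood at 117, 67.2, 190 and 127 CPM in OB 1 to 4, against 133, 87.3 and 76.4 CPM in control 1 to 3 (log2 fold change 0.34 ± 0.34, edgeR adjusted p = 0.574). The essential light chain gene Myl6 was at 958 to 1230 CPM in OB and 1040 to 1160 CPM in control (-0.02 ± 0.12 on the log2 scale, edgeR adjusted p = 0.949).

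None of the 4 tropomyosin genes, whose coiled-coil products run along the filament, passed, and all 4 log2 fold changes were below 0. Tpm2 stood at 127, 111, 156 and 134 CPM in OB 1 to 4, against 191, 154 and 217 CPM in control 1 to 3, with only OB 3 above the lowest control. Its log2 fold change was -0.50 ± 0.16 (edgeR adjusted p = 0.0920), and with the replicate number as a block it passed (-0.51, edgeR adjusted p = 0.0393). Tpm2 was called lower by DESeq2 (adjusted p = 0.0455) and not by limma-voom (adjusted p = 0.123). Tpm4 stood at 411, 336, 480 and 386 CPM in OB, against 477, 452 and 875 CPM in control. Control 3 was well above every other library for Tpm4, and without control 3 the log2 fold change was -0.21, against -0.58 ± 0.24 with it (edgeR adjusted p = 0.417 and 0.191). Per length Tpm4 was the largest of the family, at 45.8% ± 1.84 of the level in OB and 49.9% ± 8.96 in control, and control 3 alone reached 60.0%. In CPM, without the length, mean Tpm1 was above mean Tpm4 (782 and 404 in OB, 901 and 601 in control). This order thus depends on the exon length, which is 6485 bases for Tpm1 and 2203 for Tpm4. Tpm1 and Tpm3 had log2 fold changes of -0.20 and -0.24, and 23.2% of the Tpm3 50-base words recur in other genes, Tpm3-rs7 the closest. For Tpm4 that share was 15.7%, and other genes cover 6.1% of its exon bases.

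**Figure D3:**
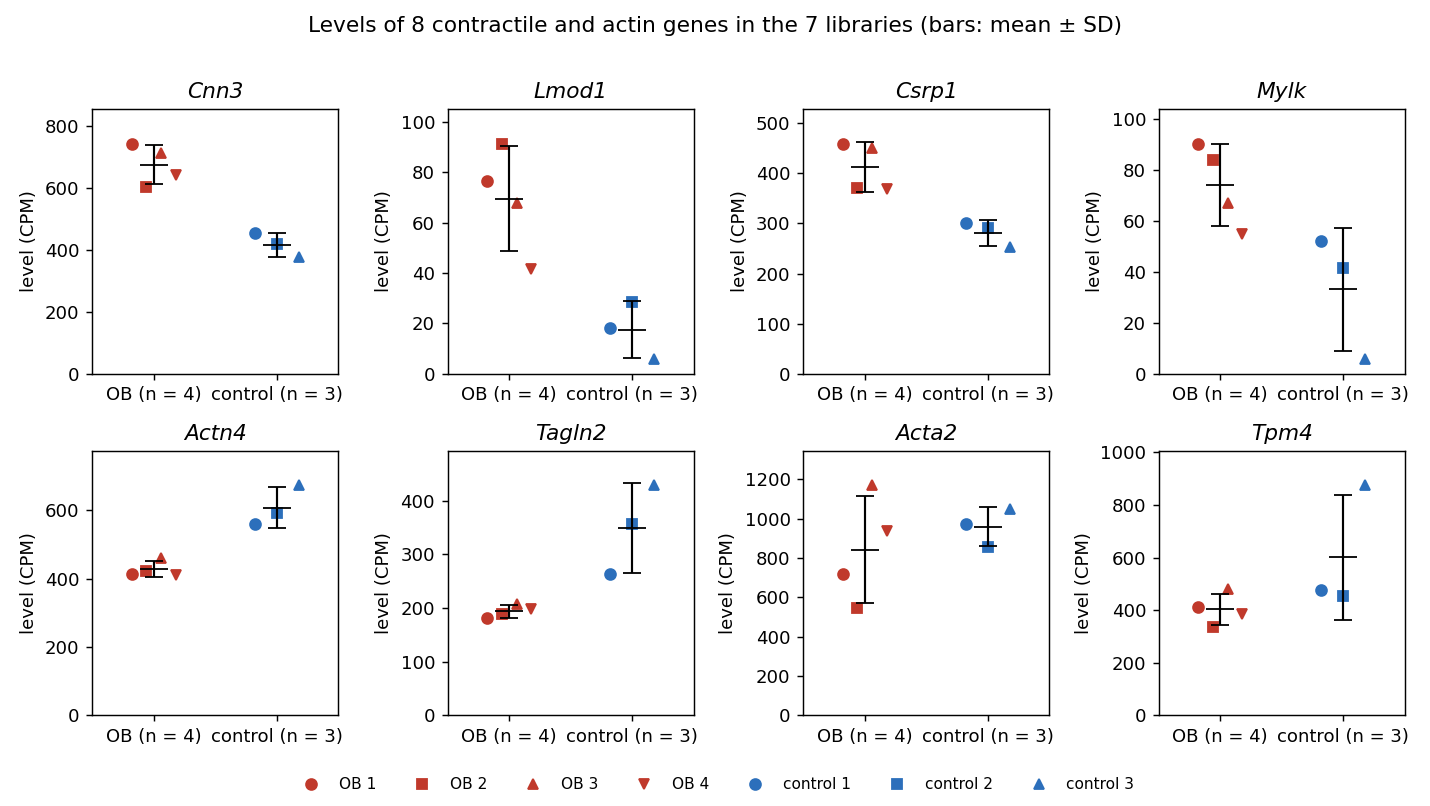
Levels in CPM (vertical axes, from 0) of 8 members in OB libraries (left, n = 4) and control libraries (right, n = 3), with mean and SD as bars and a symbol for each library. Cnn3, Lmod1, Csrp1 and Mylk lie above all controls in every OB library and Actn4 and Tagln2 below, while Acta2 and Tpm4 overlap.

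Lmod1, the gene of leiomodin 1, which nucleates actin filaments in smooth muscle, had the largest rise among the 34 members that edgeR tested. It rose to 76.7, 91.4, 68.0 and 41.8 CPM in OB 1 to 4, against 18.2, 28.4 and 5.91 CPM in control 1 to 3. Every OB library was above every control, and control 3 was again the lowest. Its log2 fold change was 1.99 ± 0.50 (edgeR adjusted p = 0.0492), a fold of 3.96, with log2 ratios of 2.07 in C1, 1.69 in C2 and 3.16 in the set with no C number. Without control 3 it was 1.57 and passed (edgeR adjusted p = 0.0382). The call ended without any other library (edgeR adjusted p = 0.0584 to 0.122). Lmod1 (ENSMUSG00000048096) lies at chr1:135324807-135368065 on the plus strand of mm10, and no exon base overlaps another gene.

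Smtn, the smoothelin gene of contractile smooth muscle, stood at 130, 99.8, 104 and 94.2 CPM in OB 1 to 4, against 66.5, 80.4 and 52.3 CPM in control 1 to 3. The groups did not overlap, but the log2 fold change of 0.69 ± 0.17 missed the threshold (edgeR adjusted p = 0.0513). Smtn was called higher by DESeq2 and limma-voom (adjusted p = 0.00959 and 0.0388), and by edgeR with upper-quartile scaling, with no filter and with the label set block (0.0489, 0.0427 and 0.0194). Other genes cover 16.3% of its exon bases, and Gm11946 on the opposite strand had the largest overlap, at 0.655 to 1.90 CPM. Groups overlapped for Cald1 (caldesmon; log2 fold change 0.23, edgeR adjusted p = 0.471) and for Synpo2 (synaptopodin 2; 0.36, edgeR adjusted p = 0.564). Cald1 was at 658 and 668 CPM in OB 1 and 2 and at 975 and 977 CPM in OB 3 and 4, against 646 to 766 CPM in control. Des, the gene of the muscle intermediate filament protein desmin, was rare, with 65 counts over the OB and 152 over the control libraries (log2 fold change -1.32 ± 0.40, edgeR adjusted p = 0.0868). DESeq2 and limma-voom called Des lower (adjusted p = 0.0407 and 0.0123).

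Among the LIM domain genes 1 of 5 passed. Csrp1, cysteine and glycine rich protein 1, a smooth muscle LIM protein that binds alpha-actinin, rose to 459, 370, 451 and 369 CPM in OB 1 to 4, against 301, 291 and 252 CPM in control 1 to 3. All OB libraries were above all controls. The log2 fold change of Csrp1 was 0.55 ± 0.13 (edgeR adjusted p = 0.0432), a fold of 1.46. This call ended without each of the 7 libraries in turn (edgeR adjusted p = 0.0622 to 0.124) and with the replicate number as a block (0.0528). Csrp1 (ENSMUSG00000026421) lies at chr1:135720061-135752232 on the plus strand of mm10.

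Fhl1, a LIM-only protein gene of muscle, stood at 185, 215, 264 and 203 CPM in OB 1 to 4, against 143, 162 and 116 CPM in control 1 to 3. The groups did not overlap, and the log2 fold change of 0.62 ± 0.16 missed the threshold (edgeR adjusted p = 0.0570). DESeq2 and limma-voom called Fhl1 higher (adjusted p = 0.0131 and 0.0423). Its relative Fhl2, a known target of SRF, stood at 26.6 to 64.9 CPM in OB and 34.8 to 70.6 CPM in control (log2 fold change -0.25 ± 0.32, edgeR adjusted p = 0.680). Of the PDZ and LIM genes, Pdlim5 differed by -0.18 and Pdlim7 by -0.42 on the log2 scale (edgeR adjusted p = 0.594 and 0.183).

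Srf did not pass. It stood at 88.6, 64.9, 52.5 and 49.8 CPM in OB 1 to 4, against 83.0, 68.9 and 73.2 CPM in control 1 to 3 (-0.23 ± 0.20 on the log2 scale, edgeR adjusted p = 0.519). Control levels lay inside the OB range. Myocd, the gene of the smooth and cardiac muscle coactivator myocardin, had 14, 5, 20 and 5 counts in OB 1 to 4, against 2, 3 and 0 counts in control 1 to 3. It was too rare for edgeR's filter. By DESeq2 it was higher in OB (log2 fold change 3.30 ± 1.07, adjusted p = 0.0198). By edgeR with no filter on low counts Myocd was not called. Its largest level in a library was 0.927 CPM.

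The members that passed were set beside their promoter windows. Of the 8 members with a CArG box in the window 0 passed, and their log2 fold changes ran from -0.68 to 0.62 with a median of -0.22. With 8.04% of all genes called, 8 members are too few for 0 calls to set them apart. Fhl1, among the 8, was near the threshold by edgeR (adjusted p = 0.0570) and was called by DESeq2 and limma-voom. The other 22 tested members with a window had a median of -0.18 and held all 5 calls. Of the 5, Lmod1 had 2 sites in a window that depart from the CArG pattern at 1 base each. Actn4, Cnn3, Tagln2 and Csrp1 had 0. Acta2, Tpm1 and Tpm3, also among the 22, had 2 each and did not pass. The share of all windows with such sites was not counted. The MCAT motif CATTCC, a binding element of TEAD factors, was searched on both strands and was found for 11 members, among them Actn4, Tagln2 and Lmod1. It was in 29.7% of the member windows and in 14.7% of all windows. The motif TGTTCT, part of the element bound by the glucocorticoid receptor, was searched on both strands and was found for Acta2, Actg1, Flna and Mylk. It was in 10.8% of the member windows and in 19.0% of all windows. In Mylk it shares 2 bases with an MCAT motif. The Lmod1 stretch (chr1:135324646-135324725, plus strand) is printed because Lmod1 had the largest rise among the members that edgeR tested, with the MCAT motif, here on the opposite strand and 130 bases before the start, in capitals.
Lmod1: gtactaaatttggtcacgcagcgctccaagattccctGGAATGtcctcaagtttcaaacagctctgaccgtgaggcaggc
A match is a run of letters and not a measured binding site, and a window without a match does not bear on sites elsewhere.

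Within the label sets, 24 of 34 members had the same sign in all 3, of which 9 were above 0 and 15 below. Of all genes 52.0% had the same sign, with 26.4% above 0 and 25.6% below. The 5 members that passed were among the 24, which was fixed in advance because their OB and control libraries did not overlap. Their log2 ratios in C1, C2 and the set with no C number were 0.71, 0.53 and 0.84 for Cnn3 and 0.61, 0.34 and 0.69 for Csrp1. Those of Actn4 were -0.43, -0.48 and -0.63, and those of Tagln2 were -0.54, -0.92 and -1.08. Members whose sign differed between sets included Myl9 (-0.19, -0.38 and 1.03) and Cald1 (-0.22, 0.05 and 0.51). All 5 calls were also made with the label set as a block, where 4 members were higher and 6 lower. That block also called Smtn higher (edgeR adjusted p = 0.0194) and called lower Tpm2 (0.0128), Pdlim7 (0.0347), Actg2 (0.0441) and Myh10 (0.0446).

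**Figure D4:**
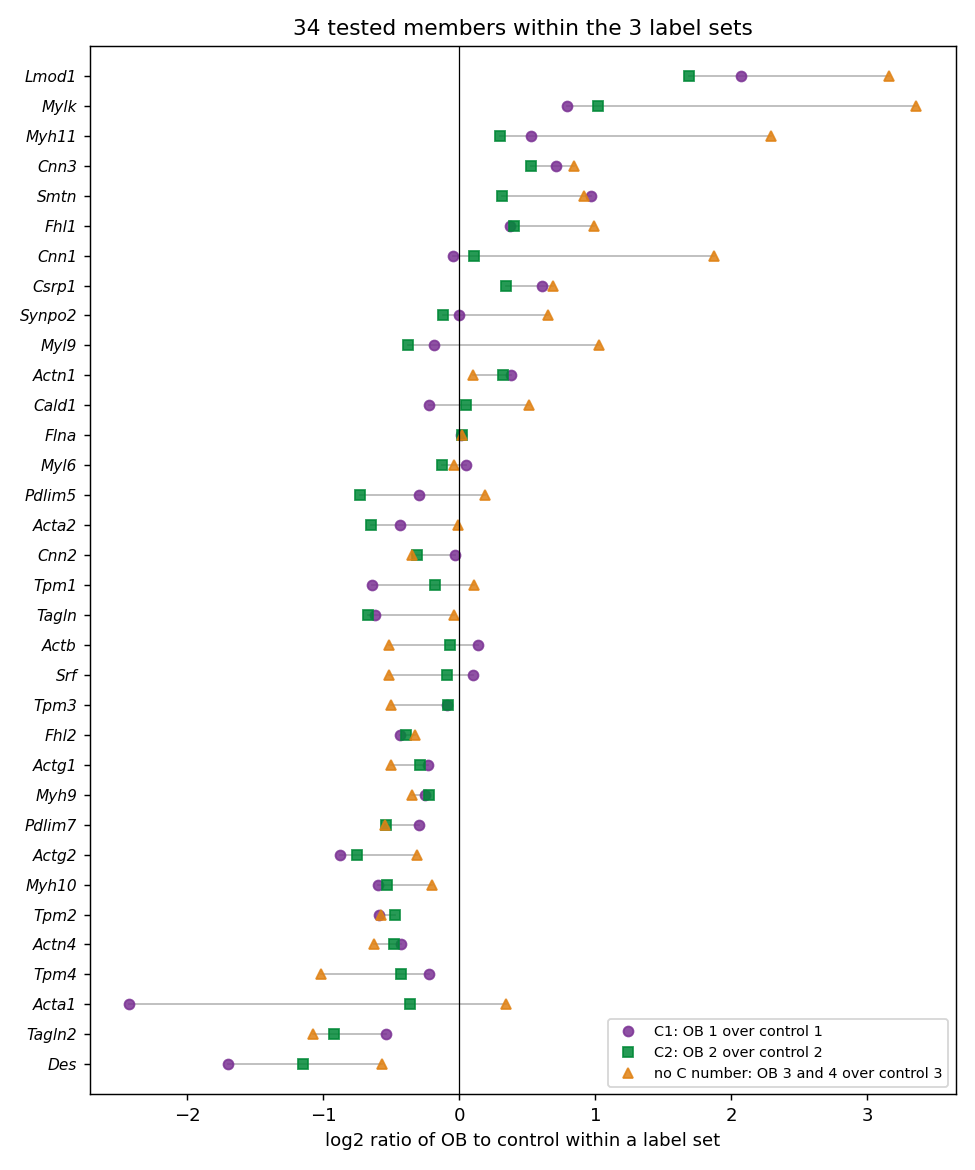
Log2 ratio of OB to control (horizontal axis) within each label set for the 34 tested members, sorted by the fold change over all libraries. Lmod1, Mylk, Myh11 and Cnn1 lie farthest right in the set with no C number. In all sets 24 of 34 members keep 1 sign, as do 52% of all genes. Among the 24 are Cnn3, Csrp1, Actn4 and Tagln2, and also Lmod1, Mylk and Myh11.

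Other genes of the pathway were taken from lists of 77 genes, of which 68 were tested. The test called 2 higher and 4 lower and left 62 uncalled, with a median log2 fold change of -0.01. Of all genes tested it called 4.32% higher and 3.72% lower. With the replicate number as a block 4 of the pathway genes were higher and 7 lower. None of the 5 SRF cofactor genes passed, and 0 had an unadjusted p under 0.05 by edgeR. Of these Elk3, a ternary complex factor gene, stood at 98.9 to 106 CPM in OB and 109 to 150 CPM in control (log2 fold change -0.28 ± 0.13, edgeR adjusted p = 0.223). Mrtfa, which codes for MRTF-A, stood at 86.7 to 98.5 CPM in OB and 73.2 to 93.2 CPM in control (0.13 ± 0.11, edgeR adjusted p = 0.500).

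Of 45 tested other SRF targets and actin-binding genes 0 were higher and 2 lower, and at an unadjusted p under 0.05 by edgeR 2 were higher and 10 lower. Of all genes tested 12.8% were higher and 12.4% lower at that unadjusted threshold. Filip1l, a filamin A interacting protein gene, fell to 31.6, 30.1, 31.2 and 29.2 CPM in OB 1 to 4, against 100, 125 and 103 CPM in control 1 to 3. On the log2 scale Filip1l fell by 1.84 ± 0.11 (edgeR adjusted p = 0.000354). Zyx, which codes for the stress fibre and focal adhesion protein zyxin, fell to 376, 300, 257 and 284 CPM in OB, against 680, 652 and 877 CPM in control (-1.27 ± 0.17, edgeR adjusted p = 0.00778). For both genes all OB libraries lay below all controls.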

How the data were processed

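Per the labels' protocols, total RNA was taken up in Trizol and its fragmented mRNA went into TruSeq v2 libraries. Counts are whole fragments per gene, deposited without normalisation and, per the file headers, made by featureCounts 1.6.4 on Ensembl 94 exons, with no option set for strand, for multi-mapping or for overlapping genes. The submitters' processing notes name Trimmomatic, HISAT2 and mm10. A fragment lying in more than 1 gene, or mapped more than once, was thus left uncounted, and strands were not separated. The exon length, another deposited column per the file headers, was used for levels per kilobase. Numbered columns were matched to samples through the input order of the counting command in the header, which names the submitters' descriptions.

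The deposited counts were tested with edgeR 4.0.16 under R 4.3.3 (filterByExpr, TMM factors of 0.981 to 1.024, quasi-likelihood test). The SE is the absolute log2 fold change divided by the square root of F. Log2 ratios within label sets used a prior count of 2. Alternatives used DESeq2 1.42.0 and limma 3.58.1. Symbols were found for 54409 of 54532 features. Overlap was read from the deposited coordinates, shared 50-base words from GENCODE transcripts, and promoters from RefSeq (GRCm38.p6). Scripts were tested on simulated data.

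The members, roles, lists and tests were chosen with earlier results of these data known. Values in every library are given for members that passed and for the 2 of each role with the smallest p, and for up to 4 called genes of each other list, or its 2 of highest level. Replicates are biological, per the design text, and no source says whether cultures were separate, so a p-value covers only the spread among these 7 libraries. Deviations from the group means of same-numbered libraries correlated across genes at 0.17, 0.52 and 0.40 for numbers 1, 2 and 3, above the bound of 0.1 for pairing, so values with the replicate number as a block are given where they change a call. OB 4 has no control of its number. Pairs of an OB and a control library with unlike numbers ran from -0.47 to 0.27. Among them OB 1 with control 2 was at 0.21 and OB 4 with control 3 at 0.27. The correlations thus do not follow the replicate number alone. Single genes of 1 of the other pathway lists are not reported here, while its genes stay in the pooled counts.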

Additional observations from a re-analysis of the deposited data

Results flagged for a closer look

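Of 34 tested members 1 had an OB library far from the other OB libraries. Des stood at 0.799 CPM in OB 2, against 0.407, 0.463 and 0.455 CPM in OB 1, 3 and 4 and 0.714 to 1.85 CPM in control. Its gap to the nearest library, as a share of the group's range, exceeded Dixon's 95% critical value for 4 samples. Chance flags about 1 in 20 groups, so 1 in 34 is within what chance gives. These levels rest on 34 counts in OB 2 and on 10, 10 and 11 in the other OB libraries. Groups of 3, such as the controls, were not examined in this way.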

How the results depend on the processing

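All 5 calls among the members were also made with DESeq2 size factors, upper-quartile scaling, DESeq2, limma-voom and the label set block. The set with no C number has 1 control library, assumed to vary like the OB libraries, so its counts below say nothing about stability. With no filter, with the replicate block and among the C1 and C2 libraries 4 of the 5 were made, each without Csrp1 (edgeR adjusted p = 0.0552, 0.0528 and 0.0751). No called value changed sign under any of these settings or without any library. The OB and control libraries of these 5 members did not overlap, which leaves little room for a change of sign. The number of members higher and lower was 6 and 5 by DESeq2, 6 and 5 by limma-voom, 4 and 6 with the label set block, 3 and 4 in C1 and C2, 11 and 10 in the set with no C number, and 2 and 3 with the replicate block. Leaving out 1 library gave 0 to 2 members higher and 0 to 4 lower. None were called without OB 1 or without control 2, 1 (Cnn3) without OB 2, OB 3 or OB 4, 3 without control 1 and 6 without control 3. The number of all genes higher and lower was 1296 and 1136 by DESeq2, 1247 and 1081 by limma-voom, 1433 and 1256 with the label set block, 1030 and 560 in C1 and C2, 3052 and 3413 in the set with no C number, and 190 to 575 and 104 to 703 without 1 library. Of other pathway genes 4 were higher with no filter, by DESeq2 and by limma-voom (9 lower by limma-voom), 4 and 7 with the replicate block, 4 and 8 with the label set block, 8 higher in C1 and C2, 12 and 22 in the set with no C number, and 0 to 3 and 2 to 3 without 1 library. The share of Acta2 among actins, OB minus control, was -5.25 points among C1 and C2 libraries and -1.24 to 3.47 without 1 library. That of Tpm4 among tropomyosins, -4.09 points with all libraries, was 0.773 in C1 and C2, -14.0 in the set with no C number and -7.66 to 0.932 without 1 library. That of Myh10 among heavy chains, -1.20 points with all libraries, was 1.93 among those with no C number. The causes of these changes were not tested. Median member log2 fold changes stayed between -0.28 and -0.03 under every setting. Levels under 1 CPM (Acta1, Cnn1 and Myocd) are limited by counting.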
